A study of Homo sapiens with 24 samples.

Results

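Control cells of 2 human cancer cell lines were compared at baseline: SW620, the colorectal adenocarcinoma (COAD) line, and BxPC-3, the pancreatic adenocarcinoma (PAAD) line. The 6 libraries were chosen by their titles, as the control libraries of these lines that were counted together in one table, and they make up 3 libraries per line out of 24 libraries of 4 lines in the series. The study asked how Ocoxin, a plant-based nutritional supplement, alters gene expression in cultured cancer cells, and these controls are the untreated side of that question. Both lines were grown in RPMI-1640 with 10% fetal bovine serum, and treated cells were kept for 48 h in medium with 1% serum. The labels give the Ocoxin dilution of a line for its controls as well, 700-fold for COAD and 500-fold for PAAD, so the letter for control in the title decided the group, and the serum of the control wells was taken as not stated. SW620 was derived from a lymph node metastasis of a colon tumour, and BxPC-3 from a pancreatic duct tumour. Each line stands for 1 donor, so a difference between tissues and a difference between the lines cannot be told apart. No source says that libraries with different numbers came from separate cultures, so p-values measure only the spread between these libraries.

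Colon epithelium is renewed from crypt stem cells under Wnt signalling, and most colon tumours activate this pathway by losing APC, after which targets such as AXIN2 and LGR5 are switched on. Pancreatic duct cells form a keratin-rich tube lined by mucins. Some pancreatic tumours take on a squamous or basal character, with the factor p63 (TP63), stratified-epithelium keratins and strong attachment to the basement membrane. These programmes were the basis of the gene lists below.

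The libraries held between 31265452 and 34397801 counts in SW620 and between 31999019 and 33570493 in BxPC-3, most fragments giving a count for each of their 2 reads. Libraries of 1 line correlated with each other at 0.992 to 0.994 (Pearson's r of log2 values across genes) and libraries of different lines at 0.705 to 0.711, and the first principal component, which separated the lines, held 96.8% of the variance. Values below are TMM-normalized counts-per-million (CPM), always in the order of libraries 1, 2 and 3, and differences are log2 fold changes of SW620 minus BxPC-3 with their standard error. A gene was called when edgeR's quasi-likelihood test gave a Benjamini-Hochberg adjusted p under 0.05 and the fitted change was at least 2-fold. Where every library of a line held 3 counts or fewer, which is 0.0837 CPM in SW620 and 0.101 CPM in BxPC-3 on average, the fold is given as a lower bound against those 3 counts per library, because the fitted fold of such a gene is not a measured size.

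A large part of the expressed genes differed between the lines by 2-fold or more. Of 18785 genes tested, 4235 were higher in SW620 (22.5% of genes tested) and 4421 were higher in BxPC-3 (23.5%). Without a minimum fold, 15141 genes (80.6%) passed, 7579 of them higher in SW620 and 7562 higher in BxPC-3, so a call by itself says little about a gene. The differences were often very large: 1353 called genes were fitted at 10-fold or more above BxPC-3 and 1910 at 10-fold or more above SW620. Protein-coding genes made up 66.5% of the calls higher in SW620 and 78.9% of those higher in BxPC-3, while long non-coding RNAs numbered 910 and 579. Scaling by total counts in place of TMM moved the median difference of all genes from 0.03 to 0.29 and turned the split to 5269 against 3762 calls, and upper quartile scaling moved it to 0.18. Differences of that size or less are therefore not read as a direction.

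**Figure D1:**
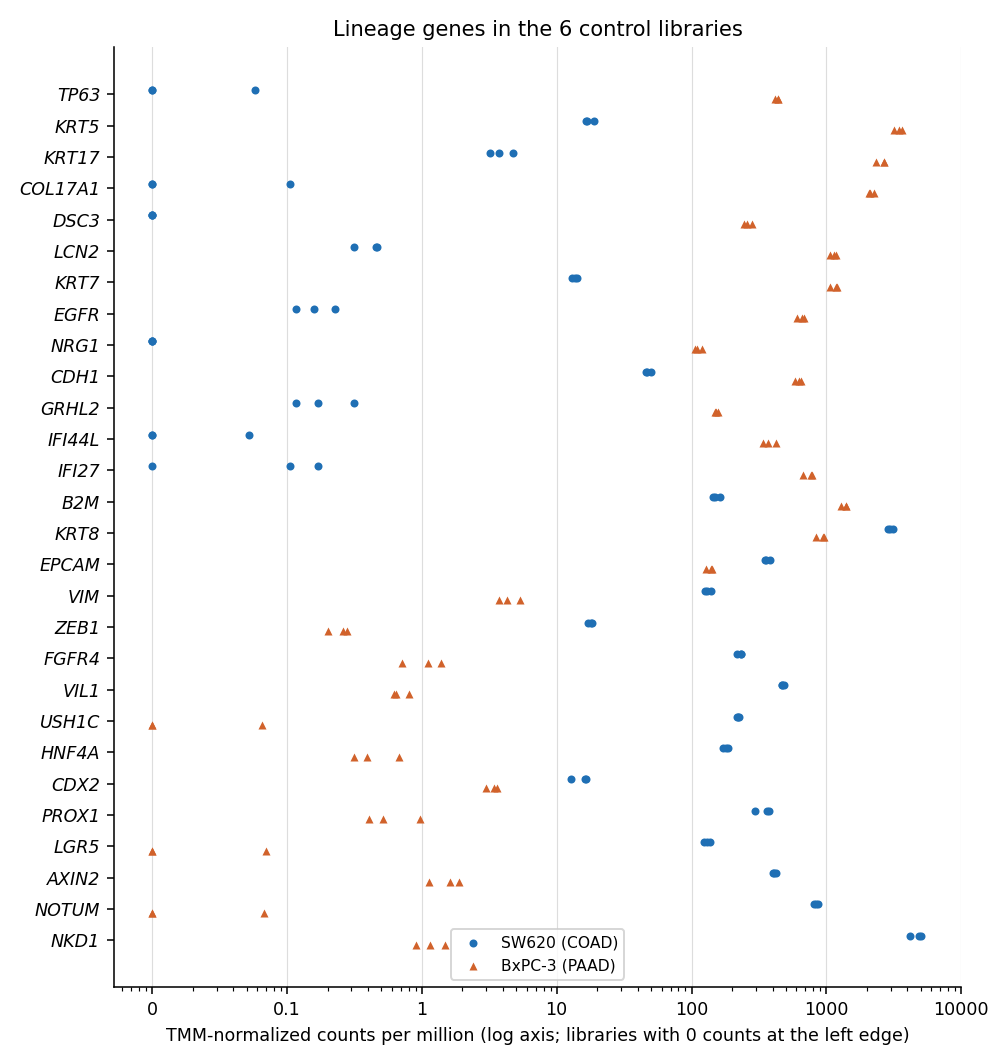
Levels of 28 lineage genes in each of the 6 control libraries, on a log axis of TMM-normalized CPM with libraries at 0 counts drawn at the tick marked 0; circles are SW620 and triangles are BxPC-3. The libraries of the lines do not overlap for any gene shown, which holds for 81.9% of all genes tested. The genes from TP63 to B2M lie to the right in BxPC-3, and those from KRT8 to NKD1 lie to the right in SW620.

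Checked against markers of their tissue, the lines carried some markers of their labels and lacked others. Of the colon markers, villin (VIL1), which bundles actin in the brush border, was at 471, 472 and 482 CPM in SW620 and 0.808, 0.624 and 0.647 CPM in BxPC-3. CDX2, the transcription factor that specifies intestine, was at 12.7, 16.1 and 16.4 CPM in SW620 and 3.63, 3.4 and 3.01 CPM in BxPC-3, and the intestinal cadherin CDH17 was at 10.9, 10.5 and 11.6 CPM in SW620 and 0.269, 0.277 and 0.324 CPM in BxPC-3. For each of these 3 markers every SW620 library was above every BxPC-3 library. Such a lack of overlap, in either direction, was found for 15380 of 18785 genes tested (81.9%). KRT20 and GPA33, which mark differentiated colonocytes, were close to 0 in both lines, with at most 0.139 and 0.625 CPM. The duct keratin KRT7 was at 13, 13.7 and 14.1 CPM in SW620 and 1183, 1205 and 1059 CPM in BxPC-3. KRT19 missed the 2-fold limit at 769 ± 46.4 against 1412 ± 144 CPM (mean ± SD, n = 3), and SOX9, a duct factor that is also a Wnt target in the crypt, was higher in SW620 at 192 ± 2.74 against 25.1 ± 3.21 CPM. The duct factor ONECUT1 had 0 counts in every BxPC-3 library. Of 20 acinar and islet markers, 14 were too low to be tested, and PNLIP, AMY2A, PTF1A, GCG, SST and PPY had no count in any library. The list summed to 20.1 to 21.4 CPM in SW620, nearly all of it PAX6 (18.2 CPM on average), and to 28.5 to 29 CPM in BxPC-3, most of it the lipase CEL (18.6 CPM).

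Wnt target genes were mostly higher in SW620. Of 28 tested Wnt targets and regulators, 18 were higher in SW620 and 5 in BxPC-3, beside 22.5% and 23.5% of all genes tested. Their median log2 difference was 1.94, beside 0.03 over all genes. They fall into feedback inhibitors, receptors and transcription factors, besides a few genes of other roles.

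Among the feedback inhibitors, NKD1, which restrains Dishevelled, was at 5051, 4885 and 4189.8 CPM in SW620 and 0.908, 1.14 and 1.49 CPM in BxPC-3. No BxPC-3 library came near the SW620 libraries (log2 fold change 11.95 ± 0.13, edgeR's quasi-likelihood test with Benjamini-Hochberg adjustment, adjusted p = 1.65e-27). NOTUM, a secreted enzyme that inactivates Wnt ligands, was at 816, 863 and 843 CPM in SW620 and 0.0673, 0 and 0 CPM in BxPC-3, which is at least 8349.5-fold higher in SW620. AXIN2, the scaffold of the destruction complex and the standard reporter of the pathway, was at 406, 422 and 401 CPM in SW620 and 1.62, 1.87 and 1.13 CPM in BxPC-3 (log2 fold change 8.06 ± 0.11, adjusted p = 9.23e-29). APCDD1 (311 ± 10.2 against 8.53 ± 0.437 CPM) and the ligases RNF43 (105 ± 4.58 against 27.5 ± 2.08 CPM) and ZNRF3 (211 ± 3.26 against 21.3 ± 0.831 CPM), which remove Wnt receptors, were also higher in SW620. DKK1, a secreted antagonist of the LRP co-receptors, went the other way at 4, 2.99 and 4.15 CPM in SW620 and 149, 166 and 152 CPM in BxPC-3.

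The receptor LGR5, which marks crypt stem cells and binds R-spondin, was at 138, 130.3 and 123 CPM in SW620 and 0, 0.0694 and 0 CPM in BxPC-3, at least 1294-fold higher in SW620. SMOC2, another stem cell gene, had no count in BxPC-3 and was at 72.4, 77.2 and 82.5 CPM in SW620. Of the ephrin receptors that sort cells along the crypt, EPHB2 (245 ± 10.7 against 63.4 ± 2.88 CPM) and EPHB3 (124 ± 3.4 against 32.6 ± 4.94 CPM) were higher in SW620 and EPHB4 (16.8 ± 1.17 against 451 ± 43 CPM) was higher in BxPC-3. CD44, the hyaluronan receptor, was higher in BxPC-3 as well at 33.3 ± 0.93 against 730.3 ± 41.2 CPM, and so was OLFM4, a stem cell marker with no count in SW620 and 5.11, 4.37 and 4.79 CPM in BxPC-3. CELSR2, a planar polarity cadherin, completed the 5 members higher in BxPC-3 at 60.9 ± 10.1 against 132 ± 7.23 CPM, a call that upper quartile scaling, total-count scaling and the loss of SW620 library 3 end, the last at -0.98 on the log2 scale.

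Among the transcription factors, PROX1 was at 373, 360.1 and 298 CPM in SW620 and 0.404, 0.971 and 0.518 CPM in BxPC-3 and SP5 at 133, 148 and 147 CPM in SW620 and 0.0673, 0 and 0 CPM in BxPC-3. ASCL2, the stem cell factor of the crypt, was at 70.2 ± 4.36 against 4.99 ± 0.287 CPM, TCF7 at 69.5 ± 4.05 against 6.48 ± 1.29 CPM and LEF1 at 7.07 ± 0.34 against 2.47 ± 0.56 CPM. Among general targets of the pathway, these 2 did not reach 2-fold: MYC was at 259 ± 3.89 against 159 ± 13.8 CPM (log2 fold change 0.70 ± 0.06) and CCND1 at 339 ± 5.65 against 249 ± 3.9 CPM (log2 fold change 0.44 ± 0.06). APC, the scaffold that restrains beta-catenin, was higher in SW620 at 55.7 ± 4.22 against 26.7 ± 1.88 CPM, and without BxPC-3 library 1 its log2 difference of 0.98 was no longer called.

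Transcription factors of gut epithelium gave a mixed picture, with large differences toward SW620 for some members. HNF4A, the nuclear receptor that maintains gut and liver epithelium, was at 181, 172 and 186 CPM in SW620 and 0.673, 0.312 and 0.388 CPM in BxPC-3. ISX, an intestinal homeobox factor, was at 11.2 ± 1.06 against 0.0116 ± 0.02 CPM. Of 11 tested intestinal transcription factors, 6 were higher in SW620 and 3 in BxPC-3, among the latter SPDEF, which drives goblet cells, and VDR. The call of VDR is ended by upper quartile and total-count scaling. Of 22 tested genes of intestinal epithelium, 13 were higher in SW620 and 7 in BxPC-3, beside 22.5% and 23.5% of all genes tested. The other 18 members of the list were too low to be tested.

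Among the members higher in SW620, besides VIL1, the microvillus scaffold USH1C was at 219.6, 219 and 225 CPM in SW620 and 0, 0 and 0.0647 CPM in BxPC-3, EPS8L3 at 208 ± 10.1 against 1.95 ± 0.295 CPM and the protocadherin CDHR2 at 41.9 ± 5.6 against 0.304 ± 0.0995 CPM. FABP1, the fatty acid binding protein of enterocytes and liver, had no count in BxPC-3 and was at 15.5, 15.9 and 17.6 CPM in SW620. Among the members higher in BxPC-3, the surface glycoprotein CEACAM6 was at 0.116, 0.21 and 0.17 CPM in SW620 and 1424, 1469 and 1389.6 CPM in BxPC-3 and CEACAM5 at 0.116, 0 and 0.0568 CPM in SW620 and 556, 618 and 584 CPM in BxPC-3. AGR2, an endoplasmic reticulum protein needed for mucin folding, was at 0.279 ± 0.263 against 495 ± 25 CPM and the gel-forming mucin MUC2 at 0.131 ± 0.0376 against 76.9 ± 17.6 CPM. The summed level of the whole list was 2595 to 2727 CPM in BxPC-3 and 1106 to 1125 CPM in SW620, although more of its members were higher in SW620.

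The FABP1 promoter is shown because it holds a motif of the CDX family, TTTATNA, which lies in 6.07% of the promoters of tested protein-coding genes when both strands are searched. It was in 5.92% of promoters higher in SW620, 8.58% of those higher in BxPC-3 and 7 of 22 squamous and basal genes higher in BxPC-3. RefSeq promoters (GRCh38.p14) matched 11367 of 14166 tested protein-coding genes, searched from 250 bases before to 50 after the start. The 250 bases before the start are printed 5′ to 3′ on the gene's strand (chr2:88128063-88128312, minus strand), with the motif in capitals, 134 bases before the start at its first base.
FABP1: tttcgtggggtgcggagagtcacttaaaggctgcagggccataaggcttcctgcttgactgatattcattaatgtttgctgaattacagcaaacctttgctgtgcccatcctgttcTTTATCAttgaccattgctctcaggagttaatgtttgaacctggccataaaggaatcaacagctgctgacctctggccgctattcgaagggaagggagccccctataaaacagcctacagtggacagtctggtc

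HOX genes, which hold the positional identity of cells along the body axis, were mostly higher in SW620. Of 34 tested HOX genes, 24 were higher in SW620 and 3 in BxPC-3, beside 22.5% and 23.5% of all genes tested. Their median log2 difference was 2.91. HOXB8 was at 51.7, 56.3 and 51.4 CPM in SW620 and 0, 0.0694 and 0 CPM in BxPC-3, HOXB9 at 46.3 ± 0.997 against 3.13 ± 0.381 CPM, HOXA9 at 40.7 ± 1.63 against 2.66 ± 0.642 CPM and HOXC10 at 51.3 ± 1.48 against 5.68 ± 1.18 CPM. These are members from the middle and posterior part of the clusters, and HOXD9 and HOXA11 were at 17.2 against 0 and 15.1 against 0.0231 CPM on average. The 3 exceptions were anterior members, HOXA3 (8.87 ± 0.873 against 26 ± 1.95 CPM), HOXA2 (0.78 ± 0.264 against 3.68 ± 0.295 CPM) and HOXB1, which had no count in SW620 and 0.404, 0.59 and 0.68 CPM in BxPC-3. HOX genes overlap antisense transcripts, and reads were counted without strand, so these values can hold reads of both.

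The lines expressed different growth factor receptors. EGFR was at 0.116, 0.158 and 0.227 CPM in SW620 and 603, 664 and 687 CPM in BxPC-3 (log2 fold change -11.90 ± 0.13, edgeR's quasi-likelihood test with Benjamini-Hochberg adjustment, adjusted p = 5.95e-30). The lines did not overlap for it, as for 81.9% of all genes tested. Ligands of EGFR were higher in BxPC-3 too: AREG was at 0.75 ± 0.252 against 48.8 ± 1.64 CPM, EREG at 2.18 ± 0.488 against 61 ± 5.25 CPM, HBEGF at 3.72 ± 0.778 against 119 ± 2.54 CPM, BTC at 1.09 ± 0.169 against 18 ± 1.09 CPM and TGFA at 55.2 ± 2.53 against 129 ± 4.48 CPM, though for TGFA total-count scaling ends the call. NRG1, the ligand of ERBB3 and ERBB4, had no count in SW620 and was at 105, 109 and 119 CPM in BxPC-3. ERBB3 was the 1 member of 12 tested that was higher in SW620, at 396 ± 9.06 against 164 ± 5.39 CPM, and ERBB2 did not reach 2-fold, at 112 ± 2.14 against 136 ± 9.45 CPM.

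Genes of the fibroblast growth factor system were divided between the lines. FGFR4 was at 218, 232 and 233 CPM in SW620 and 1.11, 1.39 and 0.712 CPM in BxPC-3, its ligand FGF19 at 218 ± 9.52 against 3.58 ± 0.552 CPM and FGFR1 at 201 ± 3.51 against 4.49 ± 0.653 CPM. The ligand FGF3 had no count in BxPC-3 and was at 108, 114 and 113 CPM in SW620. FGFR2 (0.252 ± 0.0402 against 71.5 ± 0.961 CPM) and FGFR3 (7.12 ± 1.24 against 251 ± 26.2 CPM) were higher in BxPC-3, as were MET, the receptor of hepatocyte growth factor (178 ± 4.8 against 1149 ± 51.4 CPM), and VEGFA (28.9 ± 0.42 against 358 ± 19 CPM). Of 26 tested receptor kinases and ligands outside the EGFR family, 8 were higher in SW620 and 10 in BxPC-3, beside 22.5% and 23.5% of all genes tested. Of 24 tested transcripts that respond to the ERK pathway, 5 were higher in SW620 and 8 in BxPC-3, beside the same shares. Their median log2 difference of -0.175 lies inside the range that the scaling alone can move, so no direction is read for the list. ETV5 (151 ± 2.56 against 14.5 ± 1.32 CPM), ETV4 (165 ± 7.43 against 36.2 ± 1.42 CPM) and SPRY4 (40.7 ± 3.1 against 11.7 ± 1.15 CPM) were higher in SW620, and DUSP4 (107 ± 4.49 against 394 ± 13.7 CPM), DUSP5 (6.15 ± 0.0634 against 117 ± 6.86 CPM) and FOS (5.23 ± 0.568 against 50.5 ± 2.81 CPM) in BxPC-3.

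Squamous and basal epithelial genes were nearly all higher in BxPC-3. Of 36 tested members of this list, 35 were higher in BxPC-3, beside 23.5% of all genes tested. The hair keratin KRT81 was the 1 member higher in SW620, and the median log2 difference was -9.32. Summed over the list, SW620 libraries held 374 to 403 CPM and BxPC-3 libraries 12697 to 13909.8 CPM.

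TP63, the master regulator of basal cells, was at 0.058, 0 and 0 CPM in SW620 and 414, 439 and 440.4 CPM in BxPC-3, at least 5152-fold higher in BxPC-3. The basal keratin KRT5 was at 16.6, 16.8 and 18.9 CPM in SW620 and 3624, 3471 and 3177 CPM in BxPC-3 and KRT17 at 3.22, 4.75 and 3.75 CPM in SW620 and 2661, 2698 and 2328 CPM in BxPC-3. KRT6A, a keratin of activated squamous epithelium, was at 0.233 ± 0.077 against 1256 ± 48.8 CPM, and KRT13, found in stratified epithelia, at 0.0365 ± 0.0316 against 498 ± 55.1 CPM. Reads of KRT6A, KRT6B and KRT16 can be split between near-identical copies, so the share of each is uncertain. Per kilobase of exon, KRT14, the usual partner of KRT5 in basal cells, was at 11.4 CPM in BxPC-3, KRT5 at 798 and KRT17 at 1010.0.

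Desmosome genes of squamous cells were higher in BxPC-3. DSC3 had no count in SW620 and was at 245, 257 and 281 CPM in BxPC-3, DSG3 was at 0.0189 ± 0.0328 against 208 ± 7.23 CPM and the plakophilin PKP1 at 1.7 ± 0.201 against 296 ± 16.5 CPM. Cornified envelope and antiprotease genes included some at 0 in SW620: SERPINB3, SERPINB13, SPRR1B and SPRR1A had no count there and were at 132, 71.6, 56.3 and 23.2 CPM in BxPC-3 on average. The alarmin S100A9 was at 0 ± 0 against 132 ± 13.5 CPM. S100A2, a p63 target, was at 9.1 ± 0.394 against 658 ± 40.1 CPM, SERPINB5 (maspin) at 3.29 ± 0.35 against 449 ± 13.2 CPM and the adhesion regulator TRIM29 at 136 ± 2.31 against 561 ± 42.7 CPM.

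Of the 22 squamous and basal genes higher in BxPC-3 that had a promoter in the table, 8 held the AP-1 motif TGANTCA, 36.4%, beside 5% of tested protein-coding genes. Since the list is made of known squamous genes and was chosen with earlier results of these data known, this share describes the list. Among all called genes the motif was in 7.98% of 2656 promoters higher in BxPC-3 and 5.05% of 2179 higher in SW620. It was in 7.73% of all 27195 promoters, which include those of genes not tested. SPRR1B, LCN2 and IL1RN are printed because they were at or near 0 in SW620 and hold the motif. LCN2 and IL1RN are described below with the duct and inflammatory genes. The first base of the motif lies 141 and 111 bases before the start in SPRR1B, 52 in LCN2 and 223 in IL1RN. Capitals mark the motif, the bases run 5′ to 3′ up to the base before the start, and the positions are chr1:153030953-153031202, plus strand, chr9:128149203-128149452, plus strand and chr2:113117721-113117970, plus strand of GRCh38.p14.
SPRR1B: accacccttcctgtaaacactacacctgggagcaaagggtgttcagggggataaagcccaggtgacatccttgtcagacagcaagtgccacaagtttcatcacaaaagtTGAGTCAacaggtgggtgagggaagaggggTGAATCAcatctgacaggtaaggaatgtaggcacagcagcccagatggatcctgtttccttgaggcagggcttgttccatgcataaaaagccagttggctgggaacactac
LCN2: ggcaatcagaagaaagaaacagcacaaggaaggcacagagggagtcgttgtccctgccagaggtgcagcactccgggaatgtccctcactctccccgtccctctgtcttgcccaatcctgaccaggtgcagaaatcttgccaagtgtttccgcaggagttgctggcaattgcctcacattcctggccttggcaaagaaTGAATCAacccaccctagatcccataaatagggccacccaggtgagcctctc
IL1RN: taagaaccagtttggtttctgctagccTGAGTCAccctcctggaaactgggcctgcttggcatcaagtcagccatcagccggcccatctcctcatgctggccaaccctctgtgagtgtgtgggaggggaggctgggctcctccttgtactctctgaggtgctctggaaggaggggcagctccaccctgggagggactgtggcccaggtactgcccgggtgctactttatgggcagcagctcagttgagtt

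Genes that anchor cells to the basement membrane were mostly higher in BxPC-3. COL17A1, the transmembrane collagen of the hemidesmosome, was at 0, 0.105 and 0 CPM in SW620 and 2074, 2273 and 2114 CPM in BxPC-3. The hemidesmosomal laminin chains LAMA3 (51.3 ± 3.55 against 559.8 ± 48 CPM) and LAMB3 (102 ± 1.21 against 457 ± 33.1 CPM) were higher in BxPC-3, as were the integrin subunits ITGA3 (32.2 ± 0.73 against 1235 ± 80.5 CPM), ITGA6 (292 ± 9.85 against 1188 ± 63 CPM), ITGA2 (34 ± 3.6 against 558 ± 64.1 CPM) and ITGB6 (15 ± 0.523 against 180.2 ± 9.5 CPM). ITGB4, the partner of ITGA6 in hemidesmosomes, did not reach 2-fold, at 525 ± 14.3 against 622 ± 47.8 CPM, and its sign turns with total-count scaling. In all, 18 of 23 members were higher in BxPC-3, beside 23.5% of all genes tested. COL4A2 was the 1 member higher in SW620, at 19.6 ± 1.56 against 0.582 ± 0.188 CPM. LAMB2, a laminin chain outside the list, had no count in BxPC-3 and was at 115, 115 and 101 CPM in SW620.

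Both lines expressed epithelial adhesion genes, at different levels. CDH1, which encodes E-cadherin, was at 50.1, 46.8 and 46.3 CPM in SW620 and 587, 648 and 631 CPM in BxPC-3, and EPCAM was at 357, 348 and 379.7 CPM in SW620 and 142, 128 and 139 CPM in BxPC-3, in the other direction. GRHL2 (0.201 ± 0.103 against 152 ± 3.53 CPM), OVOL1, with no count in SW620 and 11.8, 12.9 and 9.19 CPM in BxPC-3, and RAB25 (0.269 ± 0.0905 against 88.3 ± 5.77 CPM), which keep the epithelial state, were higher in BxPC-3. Of 33 tested junction genes, 17 were higher in BxPC-3 and 2 in SW620, beside 23.5% and 22.5% of all genes tested. The other 14 did not pass. The simple-epithelium keratins KRT8 (2989 ± 128 against 919 ± 69.8 CPM) and KRT18 (1509.9 ± 78.5 against 554 ± 26.1 CPM) were higher in SW620.

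Mesenchymal genes did not move as a block: 8 of 33 tested were higher in SW620 and 19 in BxPC-3, beside 22.5% and 23.5% of all genes tested. Higher in SW620 were the repressors ZEB1 (17.7 ± 0.55 against 0.246 ± 0.0394 CPM) and SNAI1 (12.1 ± 0.419 against 0.722 ± 0.301 CPM), the filament gene VIM (131 ± 6.97 against 4.45 ± 0.824 CPM), S100A4 (541 ± 32.8 against 70.8 ± 11.2 CPM) and the matrix glycoprotein TNC, which had no count in BxPC-3 and was at 64.3, 68.1 and 61.9 CPM in SW620. Higher in BxPC-3 were SNAI2 (13.8 ± 1.33 against 124 ± 5.4 CPM), the cadherins CDH2 and CDH11, the receptor kinase AXL (35.7 ± 1.86 against 233 ± 8.78 CPM), TGFBI (177 ± 5.61 against 450.0 ± 8.51 CPM) and FSTL1 (0.0733 ± 0.0275 against 248 ± 7.31 CPM). FN1 did not reach 2-fold, at 34.7 ± 5.46 against 59.8 ± 10.3 CPM.

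**Figure D2:**
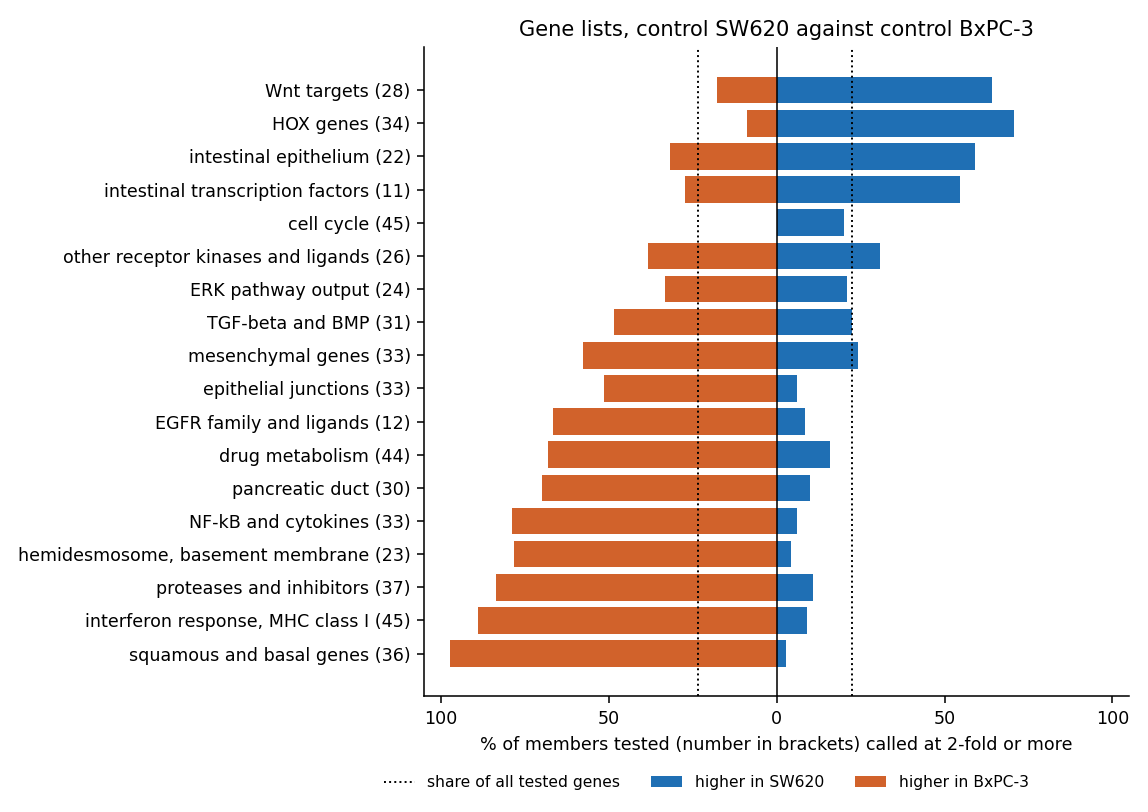
Share of the tested members of 18 gene lists called higher in SW620 (bars to the right) and in BxPC-3 (bars to the left), in percent, with the number tested in brackets; dotted lines mark 22.5% and 23.5%, the shares over all genes tested. HOX genes and Wnt targets reach farthest to the right, squamous, interferon and protease genes farthest to the left, and cell cycle genes have no bar to the left.

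Interferon-stimulated genes and antigen presentation were high in untreated BxPC-3. Of 45 tested members, 40 were higher in BxPC-3 and 4 in SW620, beside 23.5% and 22.5% of all genes tested. The libraries summed to 1077 to 1186 CPM in SW620 and 10672 to 11084 CPM in BxPC-3. IFI44L was at 0, 0.0525 and 0 CPM in SW620 and 340.2, 372 and 426 CPM in BxPC-3, IFI27 at 0, 0.105 and 0.17 CPM in SW620 and 787, 769 and 676 CPM in BxPC-3 and IFI6, which reached the 10 highest levels per kilobase in BxPC-3, at 17.6, 18.1 and 17.3 CPM in SW620 and 772, 806 and 663 CPM in BxPC-3. The antiviral effectors IFIT1 (2.61 ± 0.281 against 349.5 ± 10.5 CPM), MX1 (9.95 ± 0.351 against 146 ± 5.1 CPM), OAS2 (17.6 ± 0.985 against 587 ± 31.3 CPM) and BST2 (2.52 ± 0.293 against 391 ± 36.8 CPM) were higher in BxPC-3. The sensors RIGI (9.51 ± 0.558 against 199.6 ± 15.4 CPM) and IFIH1 (20.9 ± 0.728 against 106 ± 7.31 CPM) and the factors STAT2 (70.5 ± 1.89 against 232 ± 7.45 CPM) and IRF1 (37.8 ± 0.501 against 152 ± 6.41 CPM) were higher in BxPC-3 as well. IRF7 was an exception, at 4.02 ± 0.513 against 0.0231 ± 0.0401 CPM.

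For antigen presentation, B2M, the light chain of class I molecules, was at 149, 144 and 163 CPM in SW620 and 1408, 1402 and 1294 CPM in BxPC-3. The peptide transporter TAP1 (22.4 ± 2.5 against 72.1 ± 2.8 CPM), the proteasome subunits PSMB9 (2.42 ± 1.04 against 30.2 ± 1.42 CPM) and PSMB8 (20.6 ± 2.22 against 55.4 ± 4.16 CPM) and HLA-E (14.7 ± 0.664 against 72.6 ± 11.6 CPM) were higher in BxPC-3. 2 heavy chain genes had more counts in SW620: HLA-B was at 22.5, 20.1 and 23.1 CPM in SW620 and 0.135, 0.0694 and 1.2 CPM in BxPC-3 and HLA-C at 86.4, 75.2 and 122 CPM in SW620 and 0, 0.139 and 0.194 CPM in BxPC-3. These 2 genes are highly polymorphic and share reads with near-identical copies, so their counts against 1 reference sequence are uncertain, and whether the low counts in BxPC-3 are low expression was not tested.

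The promoters of 4 of these genes are shown for the element that interferon-activated factors bind. The motif GAAANNGAA, a short form of the interferon-stimulated response element that was added after the values were seen, lay in 23 of 31 promoters of the list members higher in BxPC-3, 74.2%, beside 6.47% of tested protein-coding genes. Since the list is made of known interferon targets, this share describes the list. Over all called genes it lay in 8.36% of promoters higher in BxPC-3 and 5.42% of those higher in SW620. Capitals mark the motif on either strand, bases run 5′ to 3′ up to the base before the start, and positions in GRCh38.p14 are chr10:89392373-89392622, plus strand, chr10:89327747-89327996, plus strand, chr1:27672193-27672442, minus strand and chr19:17405631-17405880, minus strand. In BST2 the 2 matches overlap, and the levels of IFIT1, IFI6 and BST2 are given above, with IFIT3 at 14.3 ± 0.871 against 405 ± 5.51 CPM.
IFIT1: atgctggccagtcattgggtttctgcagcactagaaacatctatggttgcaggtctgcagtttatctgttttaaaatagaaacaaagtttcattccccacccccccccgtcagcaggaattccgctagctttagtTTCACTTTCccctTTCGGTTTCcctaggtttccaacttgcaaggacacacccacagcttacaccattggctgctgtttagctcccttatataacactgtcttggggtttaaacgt
IFIT3: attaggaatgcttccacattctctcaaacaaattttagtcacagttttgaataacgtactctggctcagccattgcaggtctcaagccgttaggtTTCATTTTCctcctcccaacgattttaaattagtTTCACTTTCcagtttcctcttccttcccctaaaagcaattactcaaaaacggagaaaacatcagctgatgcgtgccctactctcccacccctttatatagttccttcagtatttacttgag
IFI6: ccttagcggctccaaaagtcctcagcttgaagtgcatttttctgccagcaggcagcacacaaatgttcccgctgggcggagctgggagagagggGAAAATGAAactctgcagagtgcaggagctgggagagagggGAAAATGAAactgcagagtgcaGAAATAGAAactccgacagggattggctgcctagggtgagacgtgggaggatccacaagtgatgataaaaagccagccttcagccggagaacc
BST2: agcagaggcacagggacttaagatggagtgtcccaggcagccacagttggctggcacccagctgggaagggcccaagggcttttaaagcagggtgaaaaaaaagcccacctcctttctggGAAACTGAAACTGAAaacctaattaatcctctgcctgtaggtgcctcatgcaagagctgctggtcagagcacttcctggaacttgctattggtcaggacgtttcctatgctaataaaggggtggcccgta

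Inflammatory genes were higher in BxPC-3 too. Of 33 tested NF-kB targets and cytokines, 26 were higher in BxPC-3 and 2 in SW620, beside 23.5% and 22.5% of all genes tested. The complement factor C3 was at 10.8, 12 and 12.8 CPM in SW620 and 1408, 1526 and 1461 CPM in BxPC-3. Interleukin 1 family genes were at or near 0 in SW620: IL1B and its antagonist IL1RN had no count there and were at 63.8, 67.6 and 71.8 and 155, 158 and 153 CPM in BxPC-3, IL1A was at 0.195 ± 0.0211 against 118 ± 11.2 CPM and IL18 at 0.734 ± 0.335 against 68.6 ± 2.41 CPM. Chemokines CXCL8 (12.2 ± 0.684 against 118 ± 10.6 CPM) and CXCL5 (0.633 ± 0.19 against 70.7 ± 3.26 CPM), the feedback inhibitors NFKBIA (45.2 ± 2.01 against 235 ± 8.96 CPM) and TNFAIP3 (12 ± 0.148 against 163 ± 18.2 CPM) and the adhesion receptor ICAM1 (8.02 ± 0.318 against 118 ± 6.47 CPM) were higher in BxPC-3. CXCL6 (19.1 ± 1.41 against 2.61 ± 0.563 CPM) and CCL2 (2.62 ± 0.617 against 0.27 ± 0.179 CPM) were higher in SW620.

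The duct list gave 21 of 30 tested members higher in BxPC-3 and 3 higher in SW620, beside 23.5% and 22.5% of all genes tested. LCN2, an iron-binding protein of inflamed epithelium whose promoter is printed above, was at 0.464, 0.315 and 0.455 CPM in SW620 and 1177, 1149.8 and 1065 CPM in BxPC-3. ANXA10 (0.14 ± 0.0311 against 85.8 ± 0.559 CPM), GATA6 (1.02 ± 0.313 against 42.7 ± 1.24 CPM), a factor of the classical pancreatic programme, and TSPAN1 (22.6 ± 1.92 against 344 ± 36.8 CPM) were higher in BxPC-3. PROM1, which encodes CD133, had no count in BxPC-3 and was at 81.3, 75.5 and 76.4 CPM in SW620. MSLN (67.1 ± 3.75 against 96 ± 12.2 CPM) and MUC5AC (3.31 ± 0.88 against 4.24 ± 0.309 CPM) did not reach 2-fold.

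Proteases and their inhibitors were mostly higher in BxPC-3, 31 of 37 tested against 4 in SW620, beside 23.5% and 22.5% of all genes tested. MMP14, the membrane collagenase, was at 9.72, 8.35 and 8.92 CPM in SW620 and 1050.1, 1091 and 957 CPM in BxPC-3. TMPRSS4 was at 0.153 ± 0.143 against 520.1 ± 34.5 CPM, the plasminogen activators PLAT at 12.3 ± 0.66 against 295 ± 26.6 CPM and PLAU at 13.3 ± 1.05 against 212 ± 7.81 CPM, and MMP1 had no count in SW620 and was at 92.6, 93.9 and 94.9 CPM in BxPC-3. The 4 exceptions were serine proteases: KLK6 (69.1 ± 5.28 against 0.0896 ± 0.0391 CPM), KLK7 (0.741 ± 0.216 against 0.0918 ± 0.106 CPM), HPN, which had no count in BxPC-3 and was at 14, 11.5 and 10.2 CPM in SW620, and TMPRSS2, which had 1 count over the 3 BxPC-3 libraries.

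Genes of drug and xenobiotic metabolism were more often higher in BxPC-3 than in SW620. Of 44 tested genes, 30 were higher in BxPC-3 and 7 in SW620, beside 23.5% and 22.5% of all genes tested. UGT1A10 had no count in SW620 and was at 279, 266 and 262 CPM in BxPC-3, though UGT1A genes share their last exons and their counts are uncertain. The reductases AKR1B10 (0.0189 ± 0.0328 against 185 ± 14.5 CPM) and AKR1C1 (10.1 ± 0.682 against 493 ± 27 CPM) and the aldehyde dehydrogenases ALDH3A1 (41.6 ± 3.35 against 1050.2 ± 95.9 CPM) and ALDH1A3 (26 ± 1.32 against 631 ± 18.2 CPM) were higher in BxPC-3. So were DPYD, which degrades fluoropyrimidines (0.136 ± 0.0912 against 85.2 ± 1.97 CPM), and TYMP, which activates them (0.223 ± 0.0116 against 214 ± 20.2 CPM). The exporters ABCB1 (7.13 ± 0.57 against 0.0231 ± 0.0401 CPM) and ABCC2 (43.8 ± 4.69 against 2.49 ± 0.486 CPM) and the cytochrome CYP2B6 (32.9 ± 2.1 against 1.02 ± 0.172 CPM) were higher in SW620, and NQO1 did not reach 2-fold, at 472 ± 30.5 against 317 ± 7.24 CPM.

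Of 45 tested cell cycle genes, 9 were higher in SW620 (20%, beside 22.5% of all genes tested), none was called higher in BxPC-3, where 23.5% of all genes were, and the median log2 difference was 0.61. POLA1 (179 ± 3.85 against 38.6 ± 5.88 CPM), UHRF1 (155 ± 6.39 against 51.9 ± 1.37 CPM), RRM2 (299 ± 12.7 against 106 ± 7.19 CPM) and TYMS (104 ± 4.31 against 46.8 ± 2.98 CPM), genes of DNA synthesis, its methylation and its building blocks, were among those called. MKI67 did not reach 2-fold, at 462 ± 85.7 against 322 ± 48.7 CPM. The inhibitor CDKN1A was higher in BxPC-3 at 6.15, 5.88 and 6.08 CPM in SW620 and 170.0, 179 and 152 CPM in BxPC-3.

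Of 31 tested genes of TGF-beta and BMP signalling, 15 were higher in BxPC-3 and 7 in SW620, beside 23.5% and 22.5% of all genes tested. TGFB2 (0.242 ± 0.119 against 53.3 ± 3.92 CPM), INHBA (0.148 ± 0.0312 against 93.8 ± 14.3 CPM), the receptor TGFBR2 (93.2 ± 3.14 against 353 ± 1.88 CPM) and the mediator SMAD3 (80.3 ± 3.38 against 638 ± 31.3 CPM) were higher in BxPC-3. BMP4 (405 ± 7.83 against 14.4 ± 1.41 CPM), BMP7 (106 ± 3.97 against 3.57 ± 0.767 CPM), BMPR1A (90.1 ± 4.53 against 28.9 ± 0.559 CPM) and ID2 (48.1 ± 1.76 against 0.221 ± 0.094 CPM) were higher in SW620, and BMP2 (0.0369 ± 0.032 against 46.3 ± 1.38 CPM) and the receptor BMPR1B (0.262 ± 0.0753 against 19 ± 1.57 CPM) in BxPC-3.

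SMAD4, the common mediator of both branches, had 0 counts in every BxPC-3 library and 43, 52 and 40 counts in SW620, which is 1.25, 1.37 and 1.14 CPM. The cell cycle inhibitors CDKN2A and CDKN2B and the neighbouring MTAP, an enzyme of methionine salvage, also had 0 counts in every BxPC-3 library. In SW620 they were at 52.2, 51.7 and 58.4, 17.9, 17.9 and 18.8 and 95.1, 98.2 and 92.5 CPM, so their levels were at least 537-fold, at least 181-fold and at least 946-fold higher there. Of 30 tested tumour suppressors and oncogenes, 46.7% were called, about the share of all genes tested (46.1%), with 8 higher in SW620 and 6 in BxPC-3. Among the latter were RB1 (63.5 ± 1.24 against 141 ± 11.2 CPM) and STK11 (44 ± 2.33 against 90.5 ± 11.6 CPM), both calls that upper quartile and total-count scaling end. That of STK11 is also lost without BxPC-3 library 1, at -0.97, and among protein-coding genes alone.

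These zeros continued along the chromosome. Beside CDKN2A on chromosome 9, the 5 expressed protein-coding genes KLHL9, MTAP, CDKN2A, CDKN2B and ELAVL2, which span 21329671 to 23826337 (hg38), all had 0 counts in BxPC-3 and 52.5, 95.2, 54.1, 18.2 and 19.3 CPM in SW620. The next gene with 20 or more counts in a library on one side, FOCAD, was at 21.5, 21.6 and 25.7 CPM in BxPC-3, and the next on the other side, TUSC1, at 12, 9.68 and 10.3 CPM there and 0.058, 0.0525 and 0.114 CPM in SW620. Beside SMAD4 on chromosome 18, ME2, ELAC1, SMAD4 and MEX3C (50879049 to 51218304) had 0 counts in BxPC-3, while SKA1 before them was at 7.2, 6.8 and 10 CPM there and DCC after them at 0.942, 0.52 and 0.582 CPM.

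Further stretches of this kind were found when every chromosome was searched for 3 or more neighbouring protein-coding genes detected in 1 line alone, a search chosen after these values had been seen. On chromosome 21, TMPRSS2, RIPK4, PRDM15, C2CD2 and ZBTB21 (41464551 to 42010387) had at most 2 counts in a BxPC-3 library and 83.8, 23.5, 19.1, 13.5 and 25.4 CPM in SW620. MX1 just before them was at 142, 152 and 143 CPM in BxPC-3. On chromosome 10, CDH23, VSIR and PSAP (71396934 to 71851375) had at most 2 counts in BxPC-3. PSAP encodes prosaposin, the precursor of lysosomal activators that most cells express, and it was at 408, 396 and 445 CPM in SW620 and 0, 0.0694 and 0 CPM in BxPC-3. The next genes, CHST3, SPOCK2, ASCC1 and ANAPC16, were also near the floor in BxPC-3, ANAPC16 at 0.0673, 0 and 0 CPM against 152, 142 and 153 CPM in SW620, and DDIT4 after them was at 60.5, 54.2 and 44 CPM in BxPC-3. DNA copy number was not measured in these libraries.

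**Figure D3:**
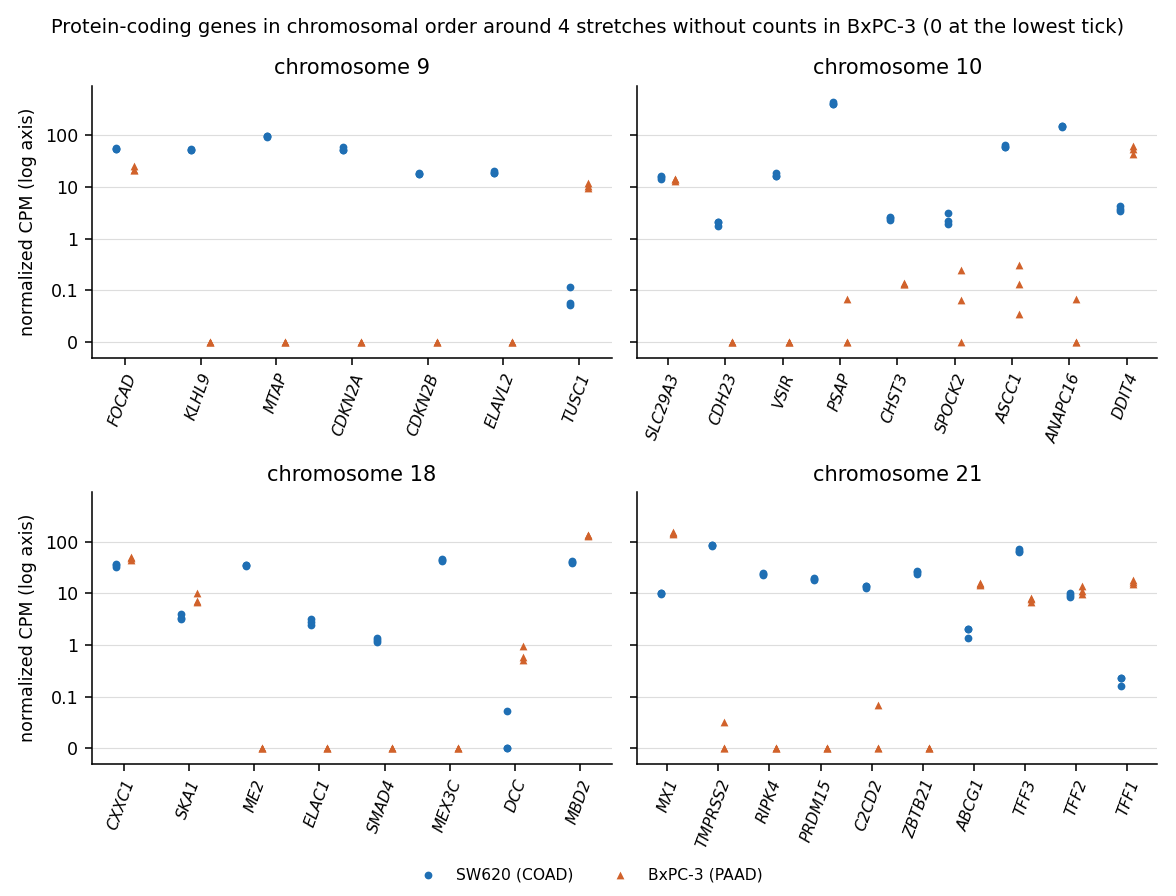
Levels of neighbouring protein-coding genes with 20 or more counts in a library, in chromosomal order, around 4 stretches of chromosomes 9, 10, 18 and 21, in TMM-normalized CPM on a log axis with 0 at the lowest tick; circles are SW620 libraries and triangles BxPC-3 libraries. Runs of genes sit at or near 0 in BxPC-3 between genes counted in both lines or in BxPC-3, from KLHL9 to ELAVL2, CDH23 to ANAPC16, ME2 to MEX3C and TMPRSS2 to ZBTB21.

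The search gave 9 runs detected in SW620 alone and 16 detected in BxPC-3 alone. Several of the latter were clusters of related genes: 8 genes from CRNN to SPRR2E of the epidermal differentiation cluster on chromosome 1, 5 SERPINB genes from SERPINB13 to SERPINB2 on chromosome 18, MMP10 to MMP13 on chromosome 11, CXCL9 to CXCL11 on chromosome 4, and SLFN11 to SLFN12L on chromosome 17. SLFN11, which sensitizes cells to DNA damage, had no count in SW620 and was at 13.6, 12.3 and 15 CPM in BxPC-3. FOXA1, a pioneer factor of foregut epithelium, was within the run MIPOL1 to TTC6 on chromosome 14, at 0.0383 ± 0.0332 against 87.9 ± 0.841 CPM. Over single genes, 524 were detected in SW620 alone, with 20 or more counts in each of its libraries and 3 or fewer in each library of BxPC-3, and 688 in BxPC-3 alone.

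Medians also differed between chromosomes. The median log2 difference of tested protein-coding genes was -0.82 on chromosome 18, where 45.9% of 185 genes were higher in BxPC-3 and 8.11% in SW620, and -0.50 on chromosome 8. It was 0.54 on chromosome 17, where 32.4% of 867 genes were higher in SW620 and 15.8% in BxPC-3, and 0.45 on the X chromosome. Of all 14166 tested protein-coding genes, 3486 were higher in BxPC-3 and 2817 in SW620. Chromosomes 3, 6 and 16 had medians of -0.02, -0.04 and -0.04, inside the range that the scaling alone can move.

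**Figure D4:**
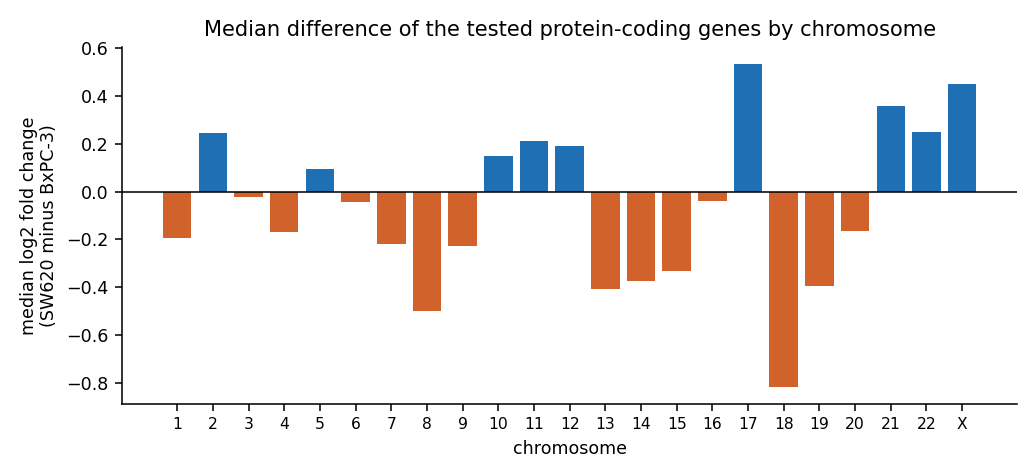
Median log2 fold change (SW620 minus BxPC-3) of the tested protein-coding genes of each autosome and of the X chromosome; bars above 0 are higher in SW620. Chromosome 18 lies lowest at -0.82 and chromosome 17 highest at 0.54.

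The 12 protein-coding genes with the largest fitted change and at least 20 CPM on the SW620 side were, in alphabetical order, CDKN2A, CYFIP2, FGF3, HDGFL3, LAMB2, MTAP, NOTUM, PALD1, PROM1, PSAP, SMOC2 and TNC. Each of them had at most 2 counts in any BxPC-3 library, so the fitted changes are not measured sizes and give no order. PALD1 was at 243, 256 and 258 CPM in SW620, at least 2508-fold higher than BxPC-3. On the BxPC-3 side the 12 were COL17A1, DHRS9, DSC3, IL1RL1, IL1RN, IRAK3, KYNU, PTGS2, SLC1A3, STC1, UGT1A10 and ZNF655. KYNU, which degrades kynurenine in tryptophan breakdown, was at 323, 321 and 316 CPM in BxPC-3, at least 3822-fold higher than SW620, and PTGS2, the inducible cyclooxygenase, at 228, 258 and 269.6 CPM. ZNF655, a zinc finger gene, had no count in SW620 and was at 153, 154 and 163 CPM in BxPC-3, while FAM200A and ZSCAN25 on either side were counted in both lines at 5.22 against 17.9 and 33.1 against 49.6 CPM on average.

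Levels are compared between genes only per kilobase of exon. The highest in SW620 were TMSB10 at 891 CPM per kilobase, then ACTG1, ACTB, HSP90AB1, S100A4, EEF2, ATP5F1B, KRT18, GAPDH and KRT8. In BxPC-3 they were FTL, the ferritin light chain, at 1335 CPM per kilobase, then S100A11, TMSB10, KRT17, ACTB, IFI6, KRT5, the glycerol channel AQP3, ACTG1 and LCN2. TMSB10, ACTG1 and ACTB were in both sets, and none of these 3 reached 2-fold between the lines. KRT17 was at 1010.0 and 1.54 CPM per kilobase in BxPC-3 and SW620, and S100A4 at 69.1 and 528.

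The same line difference was measured again in the 6 Ocoxin libraries of these lines, which share no library with the controls. Between them, 8425 of 18627 genes tested were called (45.2%), 4096 higher in SW620 and 4329 in BxPC-3. Of the control calls that were tested again, 3547 of 4023 higher in SW620 (88.2%) and 3932 of 4267 higher in BxPC-3 (92.1%) were called the same way, and 0 were called the other way. Across 18237 genes tested in both, the 2 sets of log2 differences correlated at 0.979 (Pearson's r across genes, which are not independent, in the same lines). Among the lists, 35 squamous and basal genes and 39 interferon and class I genes were higher in BxPC-3 in the Ocoxin libraries, and 18 Wnt targets and 25 HOX genes in SW620.

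The size of the line difference changed between control and Ocoxin libraries for few genes. The interaction of line and treatment was called for 735 of 19881 genes (3.7%, adjusted p under 0.05 in edgeR's quasi-likelihood test), 117 of them by 2-fold or more, and since the lines received different dilutions it compares unlike doses. MMP7, for example, was at 3.95, 3.89 and 5.09 CPM in SW620 and 41.3, 38.1 and 37 CPM in BxPC-3 in the controls, and the difference shrank from -3.17 to -1.09 with Ocoxin.

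**Figure D5:**
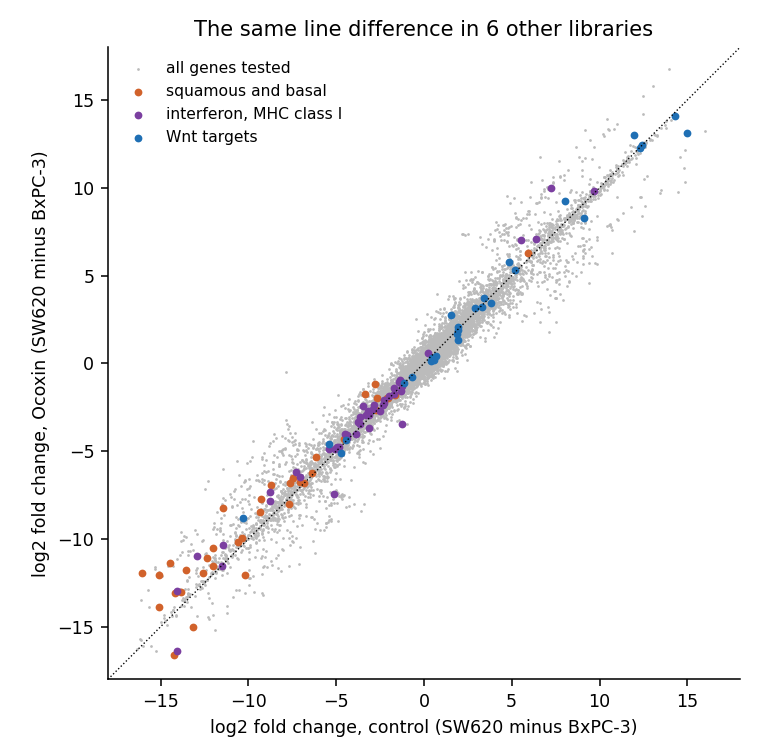
Log2 fold change of SW620 minus BxPC-3 in the control libraries (horizontal) and in the Ocoxin libraries (vertical) for 18237 genes tested in both, with squamous and basal genes, interferon and class I genes and Wnt targets coloured; the dotted line marks equal values. The coloured genes lie along the line, with Wnt targets mostly at the upper right and squamous genes at the lower left.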

How the data were processed

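Poly(A) RNA of 3 control libraries each of SW620 and BxPC-3 was compared, with the 6 Ocoxin libraries of these lines as a second set. After trimming, the authors mapped reads to hg38 (STAR), discarded PCR duplicates and summed reads over the exons of each gene with featureCounts 2.0.3, keeping 1 alignment of a read that maps to several places. The deposited table therefore holds raw counts per gene, with no scaling. The library kit keeps strand, but the counting did not use it, nor did it count a read pair once, so genes that overlap, antisense partners and near-identical paralogs are uncertain, and the 37 mitochondrial genes hold 0 counts. Of 58051 genes, 56948 matched a symbol. Gene types came from annotation release 44, and coordinates are those of the count table.

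Counts were filtered with filterByExpr and scaled with TMM in edgeR 4.0.16 (R 4.3.3), and tested with the robust quasi-likelihood fit and two-sided F-test with cell line as the only term and Benjamini-Hochberg adjustment over all genes tested. In 3 against 3 libraries an exact permutation test of 1 gene cannot go below 0.1, so none was run. The fit was tested on simulated counts with 200 genes changed. Far more genes differ between these lines, so the simulation does not test the scaling in such a case. Total counts were 31265452 to 34397801 per library, and a level near 3 counts has little precision.

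Lists were described by counts and medians, with no set test. Named genes were the members of the lists, the 12 protein-coding genes per direction with the largest fitted change among those with at least 20 CPM and no overlap of libraries, the 10 highest levels per line, and the neighbours of SMAD4 and CDKN2A. The members and lists were chosen with earlier results of these data known. Genes on the Y chromosome and XIST were left out. No pairing by replicate number was seen: deviations of libraries with the same number from their group means correlated at -0.0549, 0.00877 and -0.0816. Shared handling that moves different genes in each line would not show in this check. DESeq2 1.42.0, other scalings, filters, thresholds and the loss of each library were tried as alternatives. Some members of the lists are counted but not reported by name.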

Additional observations from a re-analysis of the deposited data

Results flagged for a closer look

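For 16 of the named genes, with at least 20 CPM in the higher line, the line difference itself differed by 2-fold or more between control and Ocoxin libraries, by the interaction of line and treatment in edgeR's quasi-likelihood test with Benjamini-Hochberg adjustment. Values are the change of the log2 difference SW620 minus BxPC-3 from control to Ocoxin, so a positive value moves a gene toward SW620. The lines received Ocoxin at different dilutions, so line and dose cannot be told apart here. Ocoxin levels were scaled over all 18 libraries of the table and control levels over the 6 control libraries.

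The difference was narrowed for 11 genes that were higher in BxPC-3: C3 by 1.44, MMP7 by 2.08, CXCL8 by 1.06, BST2 by 1.09, IL32 by 1.21, FSTL1 by 2.10, GBP1 by 1.40, LCN2 by 1.38, KRT6A by 1.29, ALDH1A1 by 1.76 and IFI27 by 1.94. For C3 the SW620 libraries went from 10.8, 12 and 12.8 CPM in control to 33, 29.2 and 31.8 CPM with Ocoxin, and for MMP7 the BxPC-3 libraries went from 41.3, 38.1 and 37 to 14.9, 17.1 and 15.5 CPM. FSTL1, GBP1, LCN2, KRT6A, ALDH1A1 and IFI27 were under 1 CPM in SW620 controls, so their change rests on few counts there, and the BxPC-3 libraries of ALDH1A1 went from 24.8, 25.3 and 26.7 to 11.5, 15.7 and 13.1 CPM.

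Of the genes higher in SW620, the difference widened for the Wnt targets NKD1 by 1.07 and AXIN2 by 1.19, whose BxPC-3 levels were under 2 CPM. It moved by -1.19 for PSAT1, by -1.01 for EPS8L3 and by -4.52 for HDGFL3, the last with no count in BxPC-3 controls and at most 0.123 CPM there with Ocoxin, so its fitted value is no measured size. PSAT1, an enzyme of serine synthesis, was at 204, 220.4 and 232 CPM in SW620 and 61.7, 61.4 and 67.2 CPM in BxPC-3 in the controls and at 132, 137 and 157 CPM in BxPC-3 with Ocoxin.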

How the results depend on the processing

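The number of genes higher in SW620 and in BxPC-3 moved by more than 1.5 times under 3 alternatives: to 2372 and 2576 with at least 10 counts required in every library, which drops genes silent in 1 line by construction, to 2252 and 2769 at 4-fold, and to 7579 and 7562 with no minimum fold. It stayed within 1.5 times under the others, DESeq2 giving 4617 and 5178, and without 1 library it lay between 4239 and 4443 in SW620 and between 4513 and 4651 in BxPC-3. The count at any fold lay between 11469 and 17075 over its alternatives, and between 14872 and 15410 without 1 library. With the replicate block the counts were 4159, 4383 and 14602, and no pair of libraries with the same number correlated above 0.1. The share of calls higher in SW620 was 48.9%, and 58.3% with total-count scaling and 54.3% with upper quartile scaling.

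Genes detected in SW620 and BxPC-3 alone numbered 349 and 458 at 50 counts or more and 299 and 430 with 0 counts required in the other line. The SW620 number was 323 among protein-coding genes, and without 1 library the numbers were 551 to 581 and 711 to 779. Runs of neighbours, alternatives chosen after seeing the data, fell from 9 and 16 to 5 and 8 at 50 counts and to 5 and 10 with 0 counts in the other line. ITGB4, which was not called, turned to 0.0248 with total counts. Of 655 named genes, DESeq2 ended the calls of 2, the replicate block of 1, upper quartile scaling of 13, total-count scaling of 20, the loss of 1 library of 1 to 6 and the 4-fold limit of 121.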

Other observations

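Whole gene families, some of whose members are described above, were counted as well. They stand beside 23.5% of all genes tested that were higher in BxPC-3 and 22.5% higher in SW620, and several lie near these shares. Cadherins gave 9 of 15 tested higher in BxPC-3 and 5 higher in SW620, with CDH3 at 6.1 ± 0.244 against 621 ± 43.2 CPM and CDH13 at 96.3 ± 2.13 against 0.405 ± 0.161 CPM. Integrins gave 12 and 3 of 19, with ITGA7 the largest of the latter at 56.6 ± 4.35 against 1.91 ± 0.083 CPM. Claudins gave 8 and 4 of 14, with CLDN11 at 211, 199.5 and 227 CPM in SW620 and 0.673, 0.208 and 0.582 CPM in BxPC-3. Keratins gave 12 and 9 of 23, S100 genes 7 and 2 of 14, clade B serpins 9 and 0 of 11, and mucins 6 and 1 of 8. Among transcription factor families, 10 and 8 of 29 FOX genes, 4 and 6 of 14 SOX genes and 10 and 2 of 18 GATA and KLF genes were higher in BxPC-3 and SW620. FOXL2, a factor of the ovary, had no count in BxPC-3 and was at 37, 38.1 and 36.3 CPM in SW620, and FOXA3 was at 36 ± 4.51 against 0.199 ± 0.108 CPM.

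Cancer-testis and oncofetal genes were 10 higher in BxPC-3 and 1 in SW620 of 13 tested, beside 23.5% and 22.5% of all genes tested. MAGEA3 was at 0.0369 ± 0.032 against 159 ± 8.4 CPM and MAGEA1 at 0 ± 0 against 77.5 ± 2.88 CPM, both with uncertain shares of reads among near-identical copies, and IGF2BP1 was at 169.9, 174 and 153 CPM in SW620 and 0.0673, 0.0694 and 0 CPM in BxPC-3, in the other direction. Metabolic genes gave 14 higher in BxPC-3 and 9 in SW620 of 40 tested, beside 23.5% and 22.5% of all genes tested. The glucose transporter SLC2A3 was at 128, 139 and 137 CPM in SW620 and 0, 0 and 0.129 CPM in BxPC-3, and SLC2A1 was short of 2-fold at 1018 ± 41.1 against 756 ± 52.6 CPM. Acinar and islet genes gave 4 and 2 of 6 tested, with 14 too low to test.

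Markers of cells that neither line should hold were mostly low. Fibroblast markers summed to 41.9 to 44.4 CPM in SW620 and 28.5 to 31.6 CPM in BxPC-3, with 3 and 4 of 7 tested members higher in either line and POSTN at 0 in both. Leukocyte markers summed to 9.29 to 10 and 8.87 to 11.4 CPM, with 2 and 4 of 6 tested members and the defining PTPRC at most at 0.0971 CPM. Endothelial markers summed to 4.56 to 5.37 CPM in SW620 and 75.8 to 84.3 CPM in BxPC-3, nearly all from CDH5, at 0.174, 0.105 and 0.0568 CPM in SW620 and 71.5, 64.1 and 66.6 CPM in BxPC-3, while KDR had no count in any library. Prostate and breast markers gave 4 of 8 tested in each direction, with KLK3 at 10.4 ± 0.405 against 0.0224 ± 0.0389 CPM. The part of these markers in the differences was not tested.

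Other promoter motifs searched on both strands include these. CAAAGTCCA, bound by HNF4, lay in 0.642% of promoters higher in SW620, 0.226% of those higher in BxPC-3 and 0.299% of all tested, and GGAATG, bound by TEAD factors, in 11.9%, 11.5% and 11.1%. CTTTGAT, bound by TCF and LEF factors and added after the values were seen, lay in 2.25%, 1.28% and 1.49%, and in 1 of 10 Wnt targets higher in SW620 that had a promoter in the table.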
